A study of Mus musculus with 2 samples.

Results

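The genes described here are 2 receptors (Notch1, Notch2), 4 ligands (Jag1, Jag2, Dll1, Dll4) and 2 target genes (Hes1, Hey1) of the Notch pathway in single cells of mouse ovarian tumors. They are 8 of the 32285 mouse genes counted, and each was found by the exact match of its symbol. Their unique molecular identifiers (UMIs, each standing for 1 captured transcript) were read per cell barcode and summed over cells gated as cancer-like, stromal-like, endothelial-like and macrophage-like. A level is given as CPM, the UMIs of a gene per 1000000 UMIs of all genes in that class and library.

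The tumors were omental tumors of female C57BL/6 J mice 12 to 16 weeks old, collected at day 10 after an intraperitoneal graft of KPCA cells, a mouse ovarian cancer line made from fallopian tube epithelial cells. No treatment is named for these mice. Both grafted lines, KPCA.FSTKO and KPCA.FSTKO_hFSTL3, carry a knockout of Fst, the gene of the activin-binding protein follistatin. The KPCA.FSTKO_hFSTL3 line also carries a human FSTL3 plasmid and is 1 stable clone kept under geneticin. Each line gave 1 library from 4 pooled tumors, called the FSTKO library and the hFSTL3 library below. With 1 library per line there is no replicate check and no test between lines, a difference between the libraries cannot be told apart from a difference between the pools or the clone, and every 95% interval (exact Poisson for levels, exact binomial for shares, conditional binomial for ratios) covers counting error only.

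Notch signalling acts between touching cells. A ligand of the Jagged or Delta-like family on one cell binds a Notch receptor on its neighbour, the receptor is cut by ADAM proteases and gamma-secretase, and its intracellular part moves to the nucleus, where it joins Rbpj and a Mastermind-like protein and switches on target genes of the Hes and Hey families. In blood vessels, Dll4 and Notch1 are known for setting the balance between tip and stalk cells during sprouting.

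The 8 genes lie on 5 chromosomes of the GRCm38 assembly (mm10), all as protein-coding genes. The receptors Notch1 and Notch2 span chr2:26457903-26516663 (minus strand) and chr3:98013527-98150361 (plus strand). The ligands Jag1 and Dll4 lie on the same chromosome as Notch1, at chr2:137081456-137116644 (minus strand) and chr2:119325784-119335962 (plus strand), while Jag2 lies at chr12:112907819-112929776 and Dll1 at chr17:15367354-15376872, both on the minus strand. The targets are Hes1 at chr16:30064384-30067796 (plus strand) and Hey1 at chr3:8663359-8667256 (minus strand).

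Promoter windows of 250 bases before the RefSeq start were found for 6 of the 8 genes, with 7 windows in all, in the RefSeq table of assembly GRCm38.p6. Hes1 and Hey1 had no entry. The windows were searched on both strands for TGGGAA, the core letters bound by Rbpj, and for CACGNG, a form of site bound by Hes and Hey proteins. TGGGAA was found in 0 of the 7 windows and in 21.6% of all 32851 windows of the table, and CACGNG was found in 5 of the 7 windows, belonging to 4 genes, and in 23.5% of all windows. A match is a description of letters only. The stretches outside the annotated gene body are shown for Dll4, the ligand with the largest FSTKO ratio of endothelial-like over cancer-like cells, and for Jag1, the ligand with the largest ratio between the libraries on at least 50 UMIs, with CACGNG on either strand in capitals.
Dll4 chr2:119325534-119325783, plus strand, 250 bases: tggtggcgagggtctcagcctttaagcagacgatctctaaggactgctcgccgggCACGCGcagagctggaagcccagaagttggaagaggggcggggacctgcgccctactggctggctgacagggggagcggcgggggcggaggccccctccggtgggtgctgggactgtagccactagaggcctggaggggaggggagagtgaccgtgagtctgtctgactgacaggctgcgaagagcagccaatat
Jag1 chr2:137116645-137116770, minus strand, 126 bases: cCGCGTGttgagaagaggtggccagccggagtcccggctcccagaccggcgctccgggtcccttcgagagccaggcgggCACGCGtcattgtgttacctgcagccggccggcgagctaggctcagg

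Of the barcodes, 6777 in the FSTKO library and 4041 in the hFSTL3 library were kept, those with fewer than 8000 but over 200 genes detected and less than 20% mitochondrial UMIs. Before these filters the deposited barcodes numbered 7582 and 4244. The description of the study gives the same numbers, but as final cell counts after quality control. Kept barcodes held 142160061 and 69751304 UMIs. The gate left 37.2% of kept FSTKO barcodes and 75.8% of kept hFSTL3 barcodes in no class, and the ungated hFSTL3 barcodes had a median mitochondrial share of 11.7%. The hFSTL3 library thus stood apart before any Notch gene was read, and it also carried more pancreatic acinar RNA in every class. The 18 acinar genes summed to 30.6 to 93.9 CPM over the 4 classes in the FSTKO library and to 364 to 1270 CPM in the hFSTL3 library. The part of this RNA in the differences below was not tested. The libraries shared 10 barcode sequences, of which 8 fell in the 4 classes in the FSTKO library and 0 in the hFSTL3 library. Fst itself was read at 5.92 CPM in FSTKO and 7.73 CPM in hFSTL3 cancer-like cells, and since the edited part of the gene is not given in the sources used here, these 3-prime reads do not check the knockout. Human FSTL3 was not analysed here.

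The cancer-like class held 2441 FSTKO and 136 hFSTL3 barcodes, with a median of 30066 and 51019 UMIs. The stromal-like class held 481 and 68, the macrophage-like class 928 and 158, and the endothelial-like class only 76 and 11, with a median of 5931.5 and 16473 UMIs per endothelial-like barcode. All 14 endothelial markers and all 14 macrophage markers were highest in their own class in both libraries, as were 12 of 12 cancer markers in the FSTKO library, 11 of 12 in the hFSTL3 library and 11 of 14 stromal markers in each. A pericyte-like class of 18 and 4 barcodes was kept apart from the stromal-like class, and all 8 pericyte markers were highest there. In 315 FSTKO and 26 hFSTL3 cancer-like barcodes the lead of the winning score lay within 0.1 of the gate's threshold, against 6 and 1 endothelial-like barcodes.

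Among the 4 classes, the endothelial-like cells held the highest level of 7 of the 8 genes in the FSTKO library, all but Notch2, beside 28.9% of all genes with at least 50 UMIs over the 4 classes. It was 4 of the 8 in the hFSTL3 library (Notch1, Jag2, Dll4 and Hey1). Of these, Notch1 alone had 50 UMIs there, which makes 1 of the 4 genes with enough UMIs, beside 26.7% of all genes. In the FSTKO library Dll4, Jag2 and Hey1 had fewer than 50 UMIs over the other 3 classes together. They passed that limit only through their endothelial-like counts. For these genes the outcome was thus close to fixed, and the 28.9% is no measure for them. The receptors divided. Notch1 was highest in endothelial-like cells and Notch2 lowest there, in both libraries. Dll4 and Jag2 stood far higher in endothelial-like cells than in the other 3 classes, whereas Jag1 and Hes1 were read in every class. The plot of levels by class shows these patterns on a log axis.

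**Figure D1:**
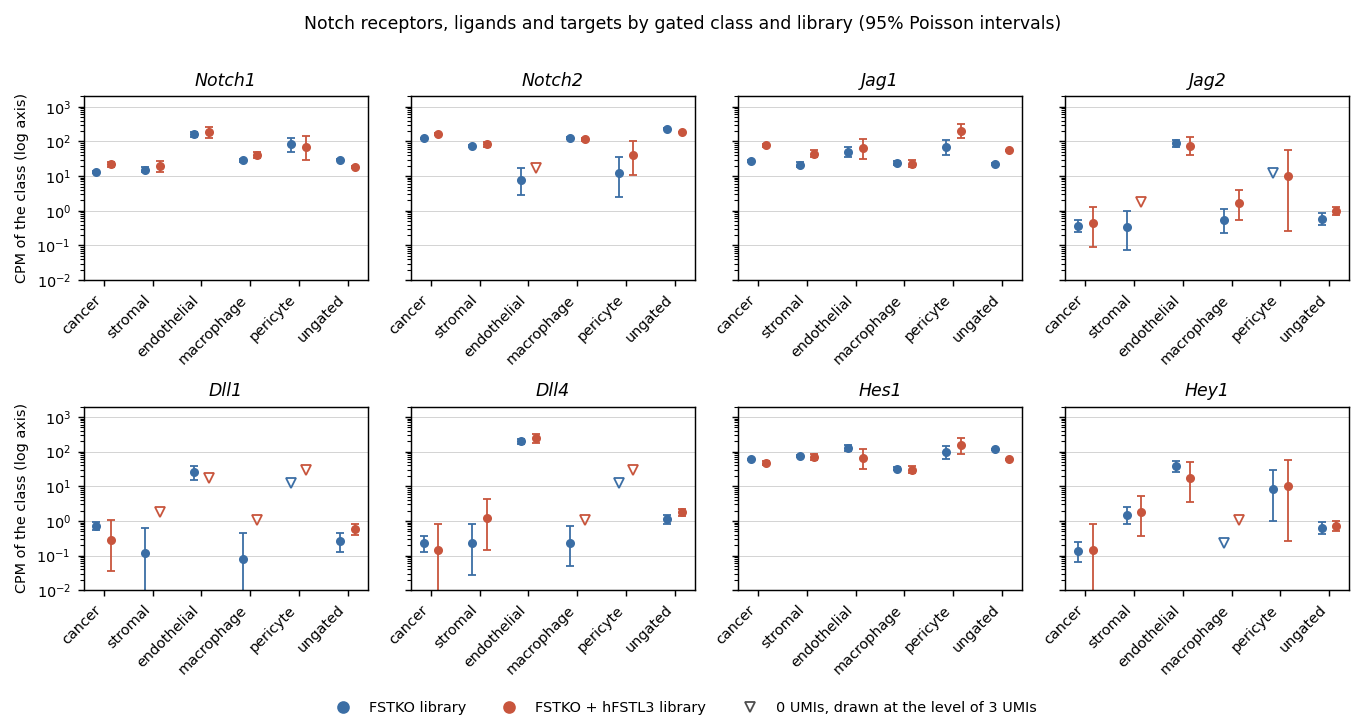
Level of each gene in CPM (log axis) in 5 gated classes and in ungated barcodes, with 1 point per library and 95% Poisson intervals. Open triangles mark 0 UMIs and stand at the level of 3 UMIs. Dll4 lies at 198.8 and 240.4 CPM in endothelial-like cells and at or under 1.19 CPM in the other 3 of the main classes.

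Notch1, the receptor used by endothelial sprouts, was read at 160.4 CPM (95% interval 133 to 192, 121 UMIs) in FSTKO and 181.8 CPM (124 to 258, 31 UMIs) in hFSTL3 endothelial-like cells. In cancer-like cells it was read at 13.3 CPM (12.5 to 14.2) in the FSTKO library and 22.3 CPM (18.9 to 26.1) in the hFSTL3 library. Endothelial-like cells were thus 12.04-fold (9.88 to 14.5) and 8.15-fold (5.35 to 12.04) above cancer-like cells. Macrophage-like cells came second in both libraries, with Notch1 at 29.0 CPM and 41.4 CPM, apart from the next class by an interval that left out 1. Stromal-like cells, at 15.3 and 19.6 CPM, were not apart from cancer-like cells in either library. Between the libraries, Notch1 was 1.67-fold (1.40 to 1.99) higher in hFSTL3 cancer-like cells and 1.42-fold (1.15 to 1.75) higher in hFSTL3 macrophage-like cells, both under the 2-fold size used here.

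Notch2 had the opposite distribution. It was read at 123 CPM (121 to 126, 9290 UMIs) in FSTKO cancer-like cells, 127 CPM (121 to 134) in macrophage-like cells and 74.4 CPM (68.7 to 80.4) in stromal-like cells, but at only 7.95 CPM (2.92 to 17.3) in endothelial-like cells, from 6 UMIs in 6 barcodes. The ratio of endothelial-like over cancer-like cells was 0.0646 (0.0237 to 0.141), or -3.95 on the log2 scale, against -1.96 with classes from clusters and -2.21 as the mean over cells. The hFSTL3 library gave 167 CPM in cancer-like, 117 CPM in macrophage-like and 84.4 CPM in stromal-like cells, and 0 UMIs in the 11 endothelial-like barcodes. A floor of 3 UMIs makes Notch2 at least 9.50-fold lower there than in the cancer-like cells. In hFSTL3 stromal-like cells 46 of the 142 Notch2 UMIs came from 1 of 68 barcodes. Ungated barcodes had Notch2 at 234 CPM in the FSTKO and 189 CPM in the hFSTL3 library, above each of the 4 classes. They held 46.2% and 83.5% of the Notch2 UMIs of these libraries. In the FSTKO library the cancer-like and macrophage-like levels of Notch2 were not apart, with a ratio of 1.03 (0.980 to 1.09), while in the hFSTL3 library the cancer-like level was 1.43-fold (1.27 to 1.62) above the macrophage-like one.

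Thinning every barcode to 5000 UMIs compared shares of cells at 1 depth. Of the 41 FSTKO endothelial-like barcodes deep enough, 48.8% (32.9% to 64.9%) kept a Notch1 UMI and 0 kept a Notch2 UMI, which allows a share of up to 7.32%. In 2190 FSTKO cancer-like barcodes the shares were 6.30% for Notch1 and 41.3% for Notch2. In stromal-like barcodes the Notch2 share was 27.1% of 424 in the FSTKO and 12.9% of 62 in the hFSTL3 library, the reverse order of the CPM levels. Without thinning, 47.4% of endothelial-like and 27.4% of cancer-like barcodes had a Notch1 UMI, at median depths of 5931.5 and 30066 UMIs. Thinning left out 35 of the 76 endothelial-like and 251 of the cancer-like barcodes.

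Among the ligands, Dll4 was the most unequal between classes. Its level in endothelial-like cells was 198.8 CPM (168 to 233, 150 UMIs in 44 of 76 barcodes) in the FSTKO library and 240.4 CPM (173 to 326, 41 UMIs in 9 of 11 barcodes) in the hFSTL3 library. The FSTKO library had 17 Dll4 UMIs in cancer-like, 2 in stromal-like and 3 in macrophage-like cells, or 0.225, 0.232 and 0.239 CPM. The hFSTL3 library had 1, 2 and 0 in the same order. The ratio of endothelial-like over cancer-like cells was 883 (533 to 1556) in the FSTKO library, and the endothelial-like cells, 1.12% of kept FSTKO barcodes, held 68.2% of its 220 Dll4 UMIs. They held 28.1% of 146 Dll4 UMIs in the hFSTL3 library, where ungated barcodes held 67.1%. The 2 endothelial levels differed by a factor of 1.21 with an interval of 0.834 to 1.72 that holds 1.

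After thinning to 5000 UMIs, 56.1% of FSTKO endothelial-like barcodes and 6 of 9 hFSTL3 endothelial-like barcodes had a Dll4 UMI. Without thinning it was 57.9% of 76 and 81.8% of 11. Among macrophage-like cells, thinning left 0 of 835 FSTKO barcodes with one, which allows up to 0.359%. Before thinning 0.323% had one at a median depth of 12704 UMIs. In FSTKO cancer-like cells 1 of 2190 thinned barcodes had a Dll4 UMI.

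Jag2 was also highest in endothelial-like cells, with 87.5 CPM (67.7 to 111) in FSTKO and 76.2 CPM (40.6 to 130) in hFSTL3 endothelial-like cells, against 0.371 and 0.438 CPM in cancer-like cells. The FSTKO ratio was 236 (149 to 381). Dll1, a ligand best known from somite and neural development, was read at 25.2 CPM (15.2 to 39.3, 19 UMIs) in FSTKO endothelial-like cells and 0.728 CPM (55 UMIs) in FSTKO cancer-like cells, a ratio of 34.6 (19.4 to 59.2). The hFSTL3 endothelial-like barcodes had 0 Dll1 UMIs, and a floor of 3 UMIs, or 17.6 CPM, puts them at least 1.43-fold lower, but that floor lies within the FSTKO interval. Dll1 in stromal-like and macrophage-like cells rested on 1 UMI each in the FSTKO library and 0 in the hFSTL3 library.

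Jag1 was the only ligand read in quantity outside endothelial-like cells. In the FSTKO library its levels lay close together, with cancer-like cells at 27.5 CPM (26.4 to 28.7), macrophage-like cells at 23.9 CPM (21.3 to 26.8), stromal-like cells at 21.5 CPM (18.5 to 24.8) and endothelial-like cells somewhat higher, at 50.4 CPM (35.6 to 69.1). In the hFSTL3 library cancer-like cells stood at 77.6 CPM (71.1 to 84.5), endothelial-like cells at 64.5 CPM (32.2 to 115), stromal-like cells at 44.6 CPM (35.1 to 55.9) and macrophage-like cells at 23.1 CPM (17.9 to 29.3). Cancer-like cells thus moved from the second to the first place, although in the hFSTL3 library they were not apart from the endothelial-like cells, which held 11 Jag1 UMIs.

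Between the libraries, Jag1 was 2.82-fold (2.56 to 3.103) higher in hFSTL3 cancer-like cells and 2.07-fold (1.56 to 2.73) higher in hFSTL3 stromal-like cells. Macrophage-like cells gave a ratio of 0.964 (0.729 to 1.26). The share of cancer-like barcodes with a Jag1 UMI after thinning to 5000 UMIs was 10.7% of 2190 in the FSTKO library and 22.8% of 136 in the hFSTL3 library, against 10.2% and 7.33% in macrophage-like barcodes. Without thinning the cancer-like shares were 36.0% and 67.6%. After thinning to 1000 UMIs, where few transcripts are left, they were 2.39% and 2.94%.

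Other barcodes of the hFSTL3 library also carried more Jag1. Ungated barcodes had 22.6 CPM in the FSTKO library and 55.6 CPM in the hFSTL3 library, and barcodes gated as erythroid had 12.2 CPM (5.28 to 24.1) and 52.0 CPM (40.1 to 66.4). The hFSTL3 cancer-like level of 77.6 CPM lay above these values and the stromal-like level of 44.6 CPM did not. The ungated hFSTL3 barcodes had a median of 16591 UMIs and held 79.0% of the Jag1 UMIs of that library, against 13.6% in cancer-like barcodes. Cancer-like barcodes were 36.0% of kept FSTKO but only 3.37% of kept hFSTL3 barcodes, so they may be a selected part of the hFSTL3 cancer cells. Whether the Jag1 of other barcodes came from free RNA or from cells that the gate missed was not tested, nor was its part in the Jag1 ratios.

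**Figure D2:**
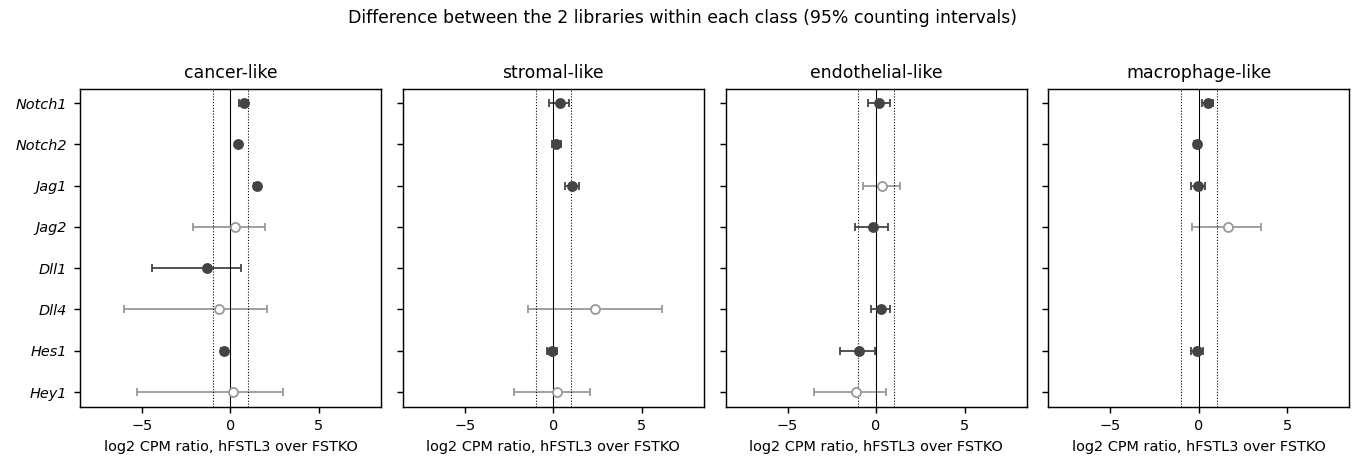
Log2 CPM ratio of the hFSTL3 over the FSTKO library for each gene within each class, with 95% counting intervals. Filled points have at least 50 UMIs over both libraries, open points fewer, and dotted lines mark 2-fold. Genes with 0 UMIs in a library have no point. Jag1 lies at 1.495 in the cancer-like class, 1.05 in the stromal-like class and -0.05 in the macrophage-like class.

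Of the targets, Hes1, a repressor that also answers to other pathways, was read in all classes. FSTKO levels were 125.9 CPM (102 to 154) in endothelial-like, 74.9 CPM (69.3 to 81.0) in stromal-like, 59.96 CPM (58.2 to 61.7) in cancer-like cells, and the macrophage-like cells were lowest at 32.5 CPM (29.5 to 35.9). Each neighbour in this order was apart from the next. In the hFSTL3 library the order was stromal-like (71.3 CPM), endothelial-like (64.5 CPM, 32.2 to 115, 11 UMIs), cancer-like (47.3 CPM) and macrophage-like cells (30.3 CPM). Endothelial-like cells were not apart from either neighbour there, while stromal-like cells were 1.51-fold (1.21 to 1.87) above cancer-like cells and these 1.56-fold (1.23 to 1.995) above macrophage-like cells. With classes from clusters the FSTKO stromal-like level lay below the cancer-like one, at a log2 ratio of -0.34 against 0.32 here. Hes1 did not share the Jag1 difference between the libraries. It was lower in hFSTL3 cancer-like cells, at a ratio of 0.788 (0.702 to 0.882), and its ratios in stromal-like and macrophage-like cells were 0.952 (0.776 to 1.16) and 0.932 (0.732 to 1.18). Ungated barcodes also had less Hes1 in the hFSTL3 library, at 118 CPM in FSTKO and 60.8 CPM in hFSTL3 barcodes. They held 47.0% of the FSTKO and 82.6% of the hFSTL3 Hes1 UMIs. Whether the cancer-like ratio is particular to cancer-like cells was not tested.

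Hey1, a target that is prominent in arterial endothelium, was read at 38.4 CPM (25.7 to 55.2, 29 UMIs) in FSTKO and 17.6 CPM (3.63 to 51.4, 3 UMIs) in hFSTL3 endothelial-like cells. Stromal-like cells had 1.51 CPM (13 UMIs) and 1.78 CPM (3 UMIs), cancer-like cells 0.132 and 0.146 CPM, and macrophage-like cells 0 UMIs in both libraries, with a floor of 0.239 and 1.03 CPM. In the FSTKO library the endothelial-like level was 25.4-fold (12.8 to 53.3) above the stromal-like one, and the stromal-like level was 11.4-fold (4.62 to 29.1) above the cancer-like one. The ratio of the libraries in endothelial-like cells was 0.458 with an interval of 0.0892 to 1.48, and for Hes1 it was 0.512 (0.247 to 0.959).

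Within the 76 FSTKO endothelial-like barcodes, 44 had a Dll4 UMI. Of these, 28 also had a Notch1 UMI, 26 a Hes1 UMI, 22 a Jag2 UMI and 12 a Hey1 UMI. Of the 32 without a Dll4 UMI, the numbers were 8, 2, 9 and 4. The barcodes with a Dll4 UMI had a median of 11275.5 UMIs and those without 2877, and the part of depth in these numbers was not tested. For Notch2 the numbers were 2 of 44 (4.55%, 0.555% to 15.5%) and 4 of 32 barcodes (12.5%, 3.51% to 29.0%), with overlapping intervals.

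A fixed size was then used to count genes: at least 50 UMIs over both sides and a CPM ratio of 2 or more either way. In the FSTKO library, 6 of the 7 genes with enough UMIs passed it between endothelial-like and cancer-like cells (5 higher, 1 lower), beside 48.1% of all genes with enough UMIs. Between macrophage-like and cancer-like cells 2 of 5 passed (Notch1 higher, Dll1 lower), beside 48.7%, and between stromal-like and cancer-like cells 1 of 5 (Dll1 lower), beside 33.4%. In the hFSTL3 library the counts were 2 of 4 for endothelial-like cells (Notch1 higher, Notch2 lower) beside 45.9%, 1 of 4 for macrophage-like cells (Jag1 lower) beside 45.1% and 0 of 4 for stromal-like cells beside 32.3%. The stromal-like and macrophage-like shares do not exceed their backgrounds. Jag2 and Dll4 reached 50 UMIs only through their FSTKO endothelial-like counts, so once counted they had to differ. Dll1 reached 50 UMIs only through its 55 FSTKO cancer-like UMIs, beside 1 stromal-like and 1 macrophage-like UMI. Its count as lower in these classes is thus no support for a difference.

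The same size between the libraries was passed by 2 of 5 genes in cancer-like cells, beside 12.1% of all genes with enough UMIs. These were Jag1, higher in the hFSTL3 library, and Dll1, lower at a ratio of 0.400 whose interval, 0.0473 to 1.52, holds 1. Dll1 reached 50 UMIs only through the FSTKO side, with 55 FSTKO and 2 hFSTL3 UMIs. In stromal-like cells 1 of 4 passed (Jag1), beside 6.35%. In endothelial-like cells 0 of 4 passed, beside 8.71%, and in macrophage-like cells 0 of 4, beside 5.98%. The Jag1 ratio in cancer-like cells stayed at or above 2 under every alternative tried, whereas the stromal-like ratio of 2.07 sits at the edge of the size and fell below it under 6 alternatives. Within the cancer-like class the Jag1 ratio was 1.75 (1.52 to 2.02) among barcodes with a Mki67 or Top2a UMI, which were 96 of the 136 hFSTL3 barcodes.

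Cancer-like cells were not uniform in these genes. In the FSTKO library, barcodes with a larger lead of the cancer markers had less Notch2 and Hes1. Notch2 was read at 106 CPM (103 to 109) where the lead was over 0.8, 161 CPM (156 to 166) at 0.5 to 0.8 and 223 CPM (215 to 231) in the barcodes just outside the gate at 0.3 to 0.5. Hes1 was read at 51.4, 78.9 and 112 CPM in the same barcodes. Notch1 had the same order, at 12.9, 14.2 and 19.4 CPM, and Jag1 the reverse, at 28.5, 25.5 and 20.1 CPM. In the hFSTL3 library Notch2 was read at 161, 173 and 267 CPM, Hes1 at 42.2, 52.2 and 51.9 CPM and Jag1 at 57.3, 97.5 and 89.3 CPM. Since the gate sets which of these barcodes are called cancer-like, the Notch2 and Hes1 levels of the FSTKO class depend on where the threshold is set.

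All kept barcodes were also clustered without the Notch genes among the variable genes, and 7 clusters took the cancer class, named here by number since the leading genes of 3 of them hold markers of another class and no cancer marker. In both libraries the cancer-like barcodes fell mainly in clusters 3, 6 and 7, with 30.6%, 19.3% and 21.8% of the FSTKO and 27.2%, 24.3% and 35.3% of the hFSTL3 ones. Cluster 6 was led by the mitotic genes Nusap1 and Ube2c, cluster 3 by Ifit1 and Plac8, and cluster 7 by Gm12381 and Epcam. Cluster 8 was led by Taco1 and Gm26917. Cluster 4 was led by Prg4, Igfbp5 and the stromal marker Postn, and it held 9.95% of the FSTKO cancer-like and 9.77% of the FSTKO stromal-like barcodes. Cluster 12, led by Slit3, Fstl1 and the collagen genes Col5a2 and Col1a2, held 2.95% of the FSTKO cancer-like barcodes. Cluster 5, led by the macrophage gene Tyrobp and the acinar genes Try5 and Ctrb1, held 9.42% of FSTKO and 4.41% of hFSTL3 cancer-like barcodes.

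The cluster levels sum all barcodes of a cluster, whatever class the gate gave them. Of the FSTKO barcodes, only 139 of 519 in cluster 8 and 243 of 1011 in cluster 4 were gated as cancer-like. In clusters 3, 6 and 7 it was 746 of 1033, 472 of 636 and 532 of 609. Notch2 was highest in cluster 8, at 586 CPM (562 to 610) over 519 FSTKO barcodes, and lower in cluster 4 (253 CPM), cluster 7 (178 CPM), cluster 6 (102 CPM) and cluster 3 (87.6 CPM). Hes1 was highest in cluster 4, at 137 CPM (133 to 141), with 71.5 CPM in cluster 7, 73.7 CPM in cluster 3, 51.6 CPM in cluster 8 and 49.3 CPM in cluster 6. Notch1 was also highest in cluster 4, at 31.7 CPM (29.7 to 33.8), where Jag1 was lowest of these 5 clusters, at 18.6 CPM (17.1 to 20.3). Cluster 12, with 176 FSTKO barcodes and a median of 4222 UMIs, had Notch2 at 243 CPM (216 to 271), Hes1 at 64.8 CPM, Jag1 at 24.2 CPM and Notch1 at 16.4 CPM. Cluster 8, with a median of only 5709 UMIs, had the most Jag1 as well as the most Notch2, at 55.4 CPM (48.3 to 63.3).

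Within clusters 3, 4, 6 and 7, Jag1 was higher in the hFSTL3 library by different amounts. It was read at 25.4 CPM in FSTKO and 122 CPM in hFSTL3 barcodes of cluster 3, a ratio of 4.80 (4.22 to 5.45), and at 18.6 and 96.4 CPM in cluster 4, a ratio of 5.17 (4.13 to 6.42) on 24 hFSTL3 barcodes. Of these 24 only 3 were gated as cancer-like, beside 37 of the 47 hFSTL3 barcodes of cluster 3. Cluster 7 had 33.2 and 69.2 CPM (2.09, 1.77 to 2.45), and the mitotic cluster 6 had 25.3 and 38.1 CPM (1.51, 1.16 to 1.94). In cluster 5 the ratio was 1.46 (0.372 to 4.17) on 4 hFSTL3 UMIs. In the gated class the split by proliferation genes gave a similar range. Barcodes with no Mki67 or Top2a UMI read 28.2 CPM in the FSTKO and 147 CPM in the hFSTL3 library, a ratio of 5.19 (4.51 to 5.96) on 40 hFSTL3 barcodes. Those with a UMI of either gene read 27.2 and 47.7 CPM, a ratio of 1.75 (1.52 to 2.02). The hFSTL3 barcodes without a proliferation UMI also had Hes1 at 66.5 CPM, against 38.9 CPM in those with one, while the FSTKO values were 64.0 and 58.3 CPM.

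**Figure D3:**
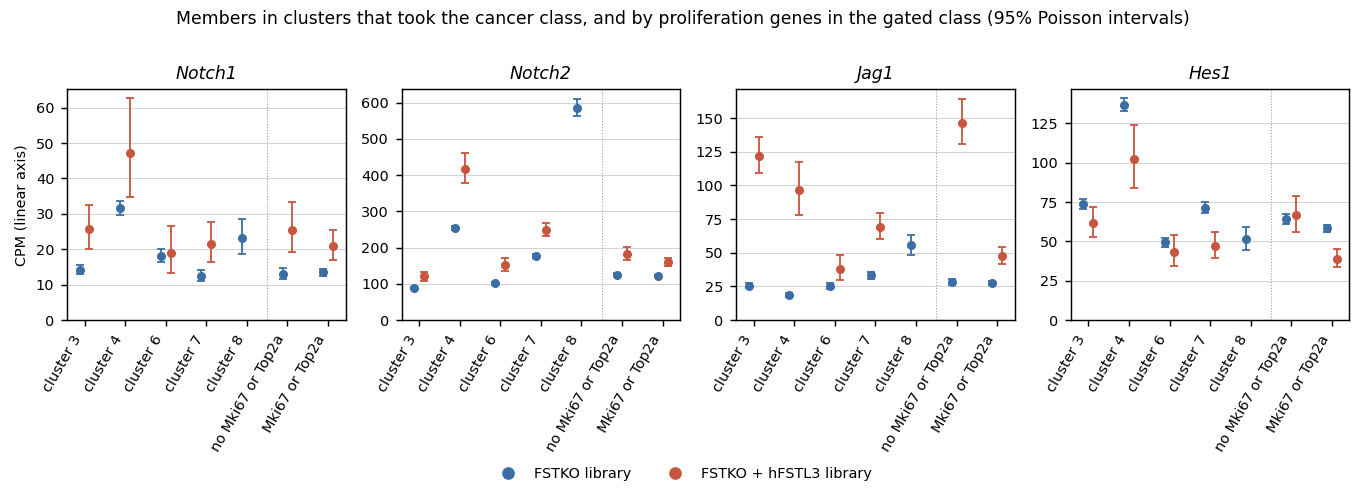
CPM (linear axis) of Notch1, Notch2, Jag1 and Hes1 in all barcodes, gated as cancer-like or not, of clusters that took the cancer class. Right of the dotted line are gated cancer-like barcodes without and with a Mki67 or Top2a UMI. Bars are 95% Poisson intervals. Cluster 8 had too few hFSTL3 barcodes for a point. Jag1 is higher in the hFSTL3 library in clusters 3, 4, 6 and 7, and Notch2 peaks at 586 CPM in cluster 8.

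Stromal-like cells also differed among themselves. The 82 FSTKO barcodes with at least 3 of 8 mesothelial markers read Notch2 at 47.3 CPM (37.8 to 58.6), Hes1 at 27.6 CPM (20.4 to 36.5) and Notch1 at 5.07 CPM (2.32 to 9.63). The 125 with no mesothelial marker read 180 CPM (161 to 202), 113 CPM (97.2 to 130) and 28.9 CPM (21.4 to 38.2). Jag1 had the reverse order, at 32.1 CPM (24.3 to 41.6) and 12.4 CPM (7.66 to 18.9). In the hFSTL3 library the same split, over 19 and 16 barcodes, gave Notch2 at 68.7 and 306 CPM and Jag1 at 46.4 and 63.2 CPM, the latter with overlapping intervals (30.1 to 68.6 and 32.7 to 110). Median depths were 18460 and 10168 UMIs in the FSTKO library, and the part of depth in this split was not tested.

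Outside the 8 genes, a list of 49 genes of the pathway was read in the same way. Its 2 other receptors were sharply divided. Notch4, a receptor of endothelium, was read at 138 CPM in FSTKO and 111 CPM in hFSTL3 endothelial-like cells and at 0.768 and 0.583 CPM in cancer-like cells. Notch3, the receptor of vascular mural cells, was read at 686 CPM (166 UMIs) and 446 CPM (44 UMIs) in the few pericyte-like barcodes, at 21.7 and 35.7 CPM in stromal-like and at 4.17 and 3.79 CPM in cancer-like cells. The members in pericyte-like cells were Notch1 at 82.7 and 70.9 CPM, Hes1 at 95.1 and 152 CPM and Jag1 at 70.3 and 203 CPM, while Dll4 had 0 UMIs in both libraries.

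Of the other targets, Nrarp, a feedback inhibitor of the pathway, was 13.2-fold (9.86 to 17.5) higher in FSTKO endothelial-like than in cancer-like cells, at 75.5 CPM, and 70.4 CPM in the hFSTL3 library. Heyl was read at 11.2 and 14.9 CPM in stromal-like and 49.6 and 70.9 CPM in pericyte-like cells, and on 3 FSTKO UMIs in cancer-like cells. In the hFSTL3 library 14 of the 25 stromal-like Heyl UMIs came from 1 barcode, as did 6 of the 7 pericyte-like ones. Hes5 had 0 UMIs in all 5 classes of both libraries. Among other ligands, Dlk1 had 24 FSTKO UMIs in pericyte-like cells, and Dll3 and Dlk2 had no more than 28 UMIs in any class.

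The genes that process and carry the signal were spread differently. The fringe gene Mfng, which modifies Notch sugars, was read at 75.5 and 99.7 CPM in endothelial-like, 11.5 and 13.4 CPM in macrophage-like and 0.172 and 0 CPM in cancer-like cells. Maml2, a Mastermind-like coactivator, was 3.34-fold (2.99 to 3.73) and 3.62-fold (2.86 to 4.52) higher in endothelial-like than cancer-like cells, and the protease gene Adam10 was 2.46-fold and 3.53-fold higher. Rbpj, the DNA-binding partner of the receptors, was low in endothelial-like cells, at 41.1 and 23.5 CPM, and high in macrophage-like cells, at 432 and 665 CPM. Endothelial-like cells thus had the highest Notch1, Dll4 and Nrarp beside the lowest Rbpj of the 4 classes.

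Some genes of receptor processing were higher in macrophage-like cells, where 48.7% of all genes in the FSTKO and 45.1% in the hFSTL3 library passed the size either way. The folds below describe single genes and are no result about the group. In the FSTKO library Furin was 4.82-fold, Psen2 5.27-fold, Adam17 2.49-fold and Aph1c 47.0-fold above cancer-like cells, and in the hFSTL3 library Furin was 2.88-fold, Psen2 6.19-fold and Adam17 2.98-fold above them. Neurl3, of a family of ligand ubiquitin ligases, was 16.6-fold and 24.0-fold higher and the fringe gene Lfng 3.95-fold and 3.89-fold higher. Numbl, of the Numb family of Notch inhibitors, was lower in macrophage-like cells, at ratios of 0.321 and 0.0473, the latter on 2 UMIs.

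Over the whole list, 42 genes had enough UMIs between FSTKO endothelial-like and cancer-like cells, and 10 of these were higher and 6 lower in the endothelial-like cells, with a median log2 ratio of 0.53 beside -0.15 for all genes. The share of the list past the size, 38.1%, lay below the 48.1% of all genes. Of the 6 lower genes, Hes7, Aph1c and Neurl1a had 0 endothelial-like UMIs and cancer-like levels under the endothelial floor of 3.98 CPM, so no fold is given for them. In macrophage-like cells 10 were higher and 4 lower (33.3% beside 48.7%, median 0.39 beside -0.38), and in stromal-like cells 7 and 3 (23.8% beside 33.4%, median 0.19 beside -0.10). The hFSTL3 library gave 8 higher and 7 lower of 29 in endothelial-like cells (51.7% beside 45.9%), with a median of 0.0043 beside -0.25. In macrophage-like cells it gave 11 and 2 of 35 (37.1% beside 45.1%, median 0.50 beside -0.24), and in stromal-like cells 5 and 2 of 33 (21.2% beside 32.3%, median 0.23 beside -0.12). Between the libraries few genes of the list passed the size, with 1 of 41 in cancer-like cells (Aph1c, lower on 1 hFSTL3 UMI), 1 of 35 in stromal-like cells (Furin, 2.09-fold higher), 1 of 19 in endothelial-like cells (Furin, lower on 2 UMIs) and 1 of 37 in macrophage-like cells (Numbl, lower on 2 UMIs). In stromal-like cells 51 of the 162 hFSTL3 Furin UMIs came from 1 of 68 barcodes, and without the barcode with the most Furin UMIs in each library the ratio was 1.48 (1.19 to 1.83). The shares of the list past the size, 2.44% among cancer-like and 2.86% among stromal-like cells, lie below those of all genes.

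**Figure D4:**
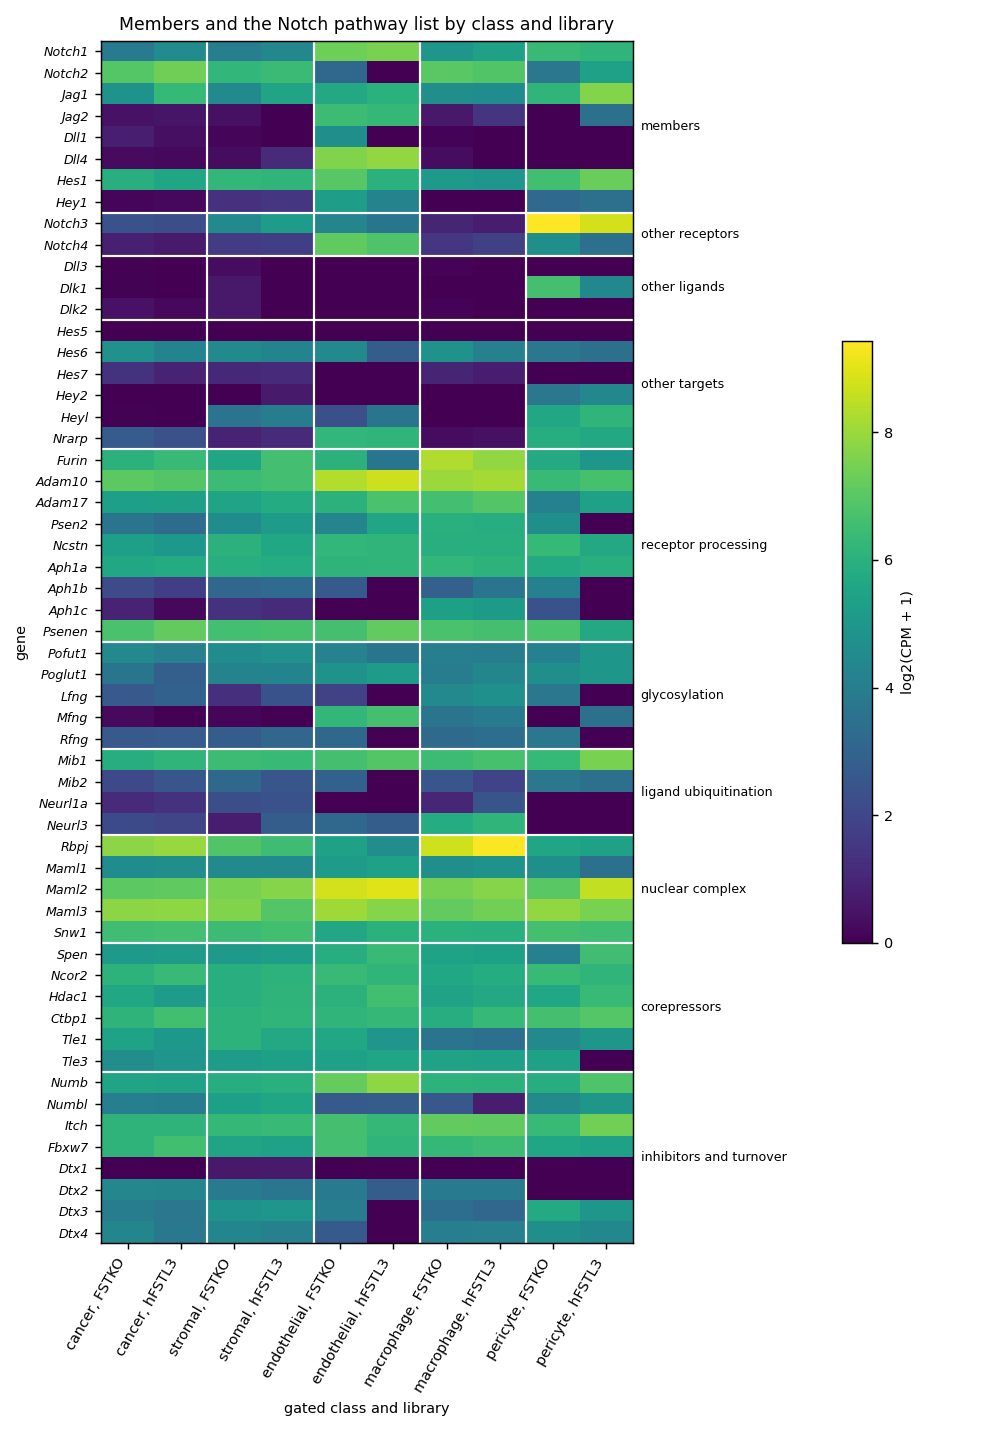
Heat map of log2(CPM + 1) for the 8 genes and the genes of the pathway list, less 1 not reported here (rows, grouped by role) in 5 gated classes of each library (columns). Notch3 is brightest in pericyte-like, Rbpj and Furin in macrophage-like, and Maml2, Adam10 and Dll4 in endothelial-like cells of both libraries.

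For each gene with at least 100 UMIs, the genes with the most similar profile were sought by Pearson's r of log2(CPM + 1) over the 8 points given by 4 classes and 2 libraries, among 13767 genes. These points share libraries and depth, and with so few of them r is a description only. Dll4 was nearest to Gimap6, Gm46565 and Myct1 (r of 0.998, 0.998 and 0.997) and Jag2 to Kcnj2, Gimap1 and Ushbp1 (0.998, 0.996 and 0.996). Notch1 was nearest to Lin52, Afap1l1 and Armh3 (0.993, 0.991 and 0.988), Notch2 to Enpp1, Eps8 and Gm20528 (0.993, 0.991 and 0.991), and Hes1 to Lmbr1, Ankrd29 and Jam2 (0.986, 0.978 and 0.976). Jag1 had the loosest neighbours, Rbm14, Myh9 and Rsrc2, each with r of 0.94. Dll1 and Hey1 had too few UMIs for this.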

How the data were processed

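Per the labels and the study's methods, the authors dissociated tumors, made 10x Genomics 3-prime libraries and ran Cell Ranger, version 3.1.0 by the submitters' processing notes but 7.2.0 by the deposited matrix headers, against mm10. The deposited values are raw UMI counts per gene and barcode, with the stated barcode filters not yet applied. The filters were applied here. Each barcode was scored for 11 marker lists as the mean of ln(1 + UMIs per 10000), and took the leading list where it led the next by at least 0.5 and at least 3 of its markers had a UMI. Markers held no gene of the Notch lists. The gate's form was written after its scores were seen, and the members and lists were chosen with earlier results of these data known.

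CPM, ratios and exact 95% intervals were computed from UMIs summed per class, and 3 UMIs served as the floor for a gene with 0. With 1 library per line no test was made. The genes named are the 8 members, genes of the pathway list with at least 50 UMIs and a ratio of at least 2 in some comparison, class markers, and the 3 nearest profiles per member with at least 100 UMIs. Hes5, Dlk1, Dll3, Dlk2, Fst and the leading genes of clusters fall outside this rule, and they were picked with their values in view. Counting of genes past the size was tested on simulated data. Clusters came from 2000 variable genes without the Notch genes, 20 principal components, 20 neighbours and Leiden resolution 1, and are an alternative to the gate. For 1 gene of the pathway list no value is reported here. Doublets were kept, and an alternative left out the top 5% of Scrublet scores per library. The alternatives changed the gate, the barcode filter, acinar barcodes, doublets, the scaling (TMM factors, for which alone edgeR 4.0.16 was run), the mean, the deepest barcodes and the size. Other software was scanpy 1.11.5, igraph 0.11.9, scipy 1.17.1, numpy 2.4.6, pandas 2.3.3, matplotlib 3.10.9, R 4.3.3 and Python 3.11.15. Promoters are from RefSeq (GRCm38.p6) and gene positions from GENCODE (GRCm38).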

Additional observations from a re-analysis of the deposited data

How the results depend on the processing

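Counts of genes at least 2-fold apart rest on 4 to 7 genes each, and a gene at the edge of the size moves them. The count of genes highest in endothelial-like cells stayed at 7 in the FSTKO library under all 10 alternatives run for it and was 4 or 5 in the hFSTL3 library. Between the libraries, the stromal-like count went from 1 to 0 under the stricter gate, the looser gate, classes from clusters, without doublet-scored barcodes and with TMM scaling. The cancer-like count went from 2 to 1 under both gates, classes from clusters, no barcode filter, at least 100 UMIs, and where the interval also had to leave out 1, and the endothelial-like count from 0 to 1 under both gates, TMM scaling, without the top 1% of barcodes, at least 20 UMIs and 1.5-fold. For stromal-like over cancer-like cells the hFSTL3 count went from 0 to 1 under the stricter gate, clusters, without doublets, TMM, the mean over cells and without the top 1%, and to 3 at 1.5-fold, and the FSTKO count from 1 to 2 at 20 UMIs or 1.5-fold and to 0 at 100 UMIs. For macrophage-like cells the FSTKO count went from 2 to 1 under the stricter gate and at 100 UMIs, and the hFSTL3 count from 1 to 2 without the top 1% and to 3 at 1.5-fold. The causes were not tested.

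The Dll1 log2 ratio between libraries in cancer-like cells, -1.32 on 2 hFSTL3 UMIs, turned to 0.062 with classes from clusters and 0.30 with no barcode filter. The Jag1 log2 ratio ran from 1.01 (stricter gate) to 1.64 (classes from clusters) in cancer-like and from 0.85 to 1.31 in stromal-like cells. TMM moved log2 ratios by -0.29 to 0.10. From a thinning depth of 1000 to 5000 UMIs, the FSTKO and hFSTL3 shares went to 56.1% and 66.7% for Dll4 and 48.8% and 55.6% for Notch1 in endothelial-like cells, and to 41.3% and 44.1% for Notch2 and 10.7% and 22.8% for Jag1 in cancer-like cells. The interval rule, leaving out shared barcodes, and classes from clusters without the 3 cancer clusters led by markers of other classes were added after seeing the data. Leaving out acinar barcodes moved values of macrophage-like cells alone and so bears on no other class. Shared barcodes changed none of these counts. Without the 3 clusters the count between libraries was 1 for the cancer-like class and 0 for the stromal-like class, those of stromal-like over cancer-like cells were 2 (FSTKO) and 1 (hFSTL3), and the Jag1 log2 ratio in cancer-like cells was 1.49. The 11 hFSTL3 endothelial-like barcodes limit what can be said of that class. No paired analysis was possible because each line gave 1 library.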
